A study of Homo sapiens with 8 samples.

Results

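The genes described are the 10 core genes of non-homologous end joining, XRCC5, XRCC6, PRKDC, DCLRE1C, POLL, POLM, XRCC4, LIG4, NHEJ1 and PAXX. They were chosen by name, by matching the Entrez gene numbers of the count tables to these symbols, and make up 10 of the 27936 genes of the tables. All 10 were found, and all 10 passed the filter on low counts that 14455 genes passed. The libraries were made from poly(A) RNA of HEK293, a human line grown from embryonic kidney tissue. In 4 of them, labelled KO, TIP60 had been mutated, and 4 served as controls. TIP60, also called KAT5, is an acetyltransferase of histones and of other proteins that include the break-signalling kinase ATM. The study asked which genes differ in expression between the arms.

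Of the KO libraries, 2 carry the guide name sgRNA1 and 2 the name sgRNA2, and all have the genotype HEKg1/C9. The control arm was divided between the guide names in the same way, all with the genotype HEKg1. Neither genotype name, nor what the guides of the control libraries target, is explained in the labels. Every culture, KO or control, had received doxycycline at 1 µg/ml for 3 days to switch on its guide RNA, the molecule that directs a nuclease to its target. No label says whether replicates were separate cultures or whether a line was 1 clone, so that the p-values below measure the spread between these libraries only, which may be technical.

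Non-homologous end joining rejoins the ends of a broken DNA molecule without copying a template and works through the whole cell cycle. The ring formed by Ku70 and Ku80 slides onto each end and recruits the kinase DNA-PKcs. Ends that do not match are trimmed by the nuclease Artemis and filled by DNA polymerases of the X family, and ligase IV, held by its partner XRCC4, seals the strands while XLF and PAXX help to hold the ends together. The pathway also joins the breaks that lymphocytes make in their antigen receptor genes, and its core proteins are made in most cell types.

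KAT5 had 18.6, 18.3, 20.2 and 18.01 CPM (counts scaled to library size with TMM factors) in the KO libraries, against 48.2, 45.5, 44.5 and 49.0 CPM in the control libraries. The groups did not overlap, and the log2 fold change was -1.32 ± 0.064 (SE; adjusted p = 6.71e-13). Total gene counts lay between 13325415 and 18841774 in the KO libraries and between 3723992 and 14601552 in the control libraries, and control sgRNA1 replicate 2 was the shallowest. The 6 markers of HEK293 (PAX2, VIM, KRT8, KRT18, NEFM and NEFL) were all counted. Their levels summed to between 14170 and 15390 CPM in KO libraries and to between 9257 and 11020 CPM in control libraries, most of it from the neurofilament gene NEFM. PAX2 was near the floor, at 0.902 CPM in KO and 0.706 CPM in control libraries (means). KRT8, NEFM and NEFL were higher in KO libraries (log2 fold changes of 0.36, 0.57 and 0.38). VIM was lower (-0.30), and no change was detected for KRT18 or PAX2. Markers of other cell types were low. The 4 leukocyte markers summed to between 1.19 and 1.94 CPM in KO libraries and to between 0.485 and 1.08 CPM in control libraries, the 3 endothelial markers to between 0.594 and 1.40 CPM in KO and between 0 and 0.326 CPM in control libraries, and the 3 hepatocyte markers to between 0.234 and 0.594 CPM in KO and between 0 and 0.0690 CPM in control libraries. The 4 fibroblast markers summed to between 24.2 and 26.8 CPM in KO libraries and to between 18.3 and 27.7 CPM in control libraries, almost all from COL1A1 and COL3A1, while DCN had 1 count in the KO arm and 0 in the control arm. Whether these low levels bear on any result below was not tested.

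Of the 10 end-joining genes, 3 were higher in KO cells (XRCC4, LIG4 and DCLRE1C), 4 were lower (PAXX, XRCC5, PRKDC and XRCC6) and 3 did not pass the test (POLL, POLM and NHEJ1). A gene was called where edgeR's quasi-likelihood test over all 14455 genes, with the guide number as a covariate and Benjamini-Hochberg adjustment, gave an adjusted p under 0.05. Of all genes tested, 63.0% were called, 31.8% as higher and 31.2% as lower, and the share of end-joining genes called was near that background. Their median log2 fold change was -0.04, against 0.01 over all genes tested, and the median size without its sign was 0.298, against 0.287. A change of more than 1.5-fold in either direction was seen for 3 of the 10, against 22.7% of all genes tested. The members changed in both directions, as did all genes tested. Among those called, the ligase, its partner and the nuclease Artemis were higher, and the Ku subunits, the kinase and PAXX were lower. In RNA from whole cultures, fewer cells that express a gene and less of its RNA per cell cannot be told apart.

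**Figure D1:**
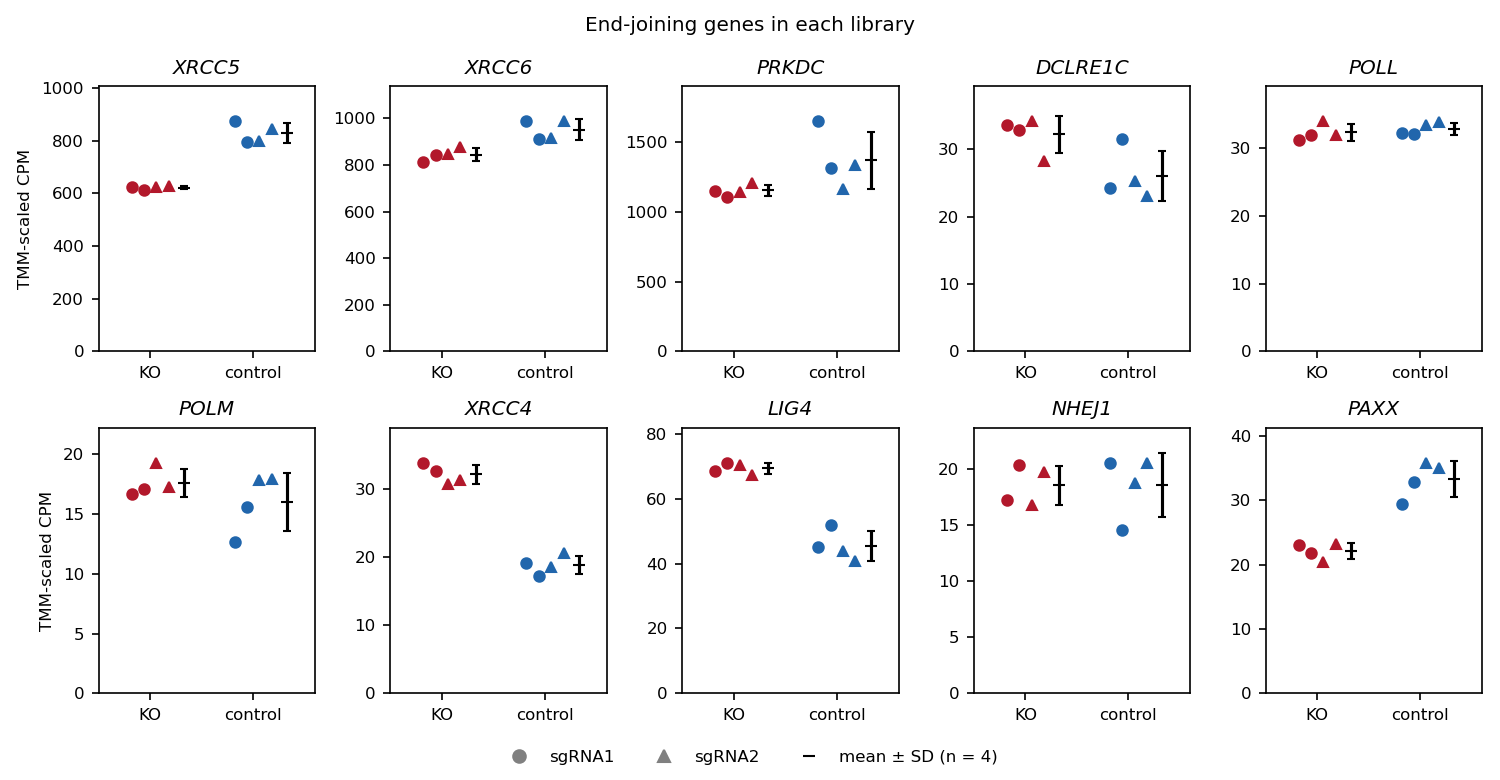
TMM-scaled CPM of each end-joining gene in the 4 KO and the 4 control libraries. Circles are sgRNA1 and triangles sgRNA2 libraries, black marks are the mean and SD of 4, and each axis starts at 0. XRCC4 and LIG4 lay above the controls in every KO library, and XRCC5, XRCC6 and PAXX below them.

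The start regions of 4 of these genes are shown, 2 that rose most and 2 that fell without overlap between the arms. Each is a RefSeq window of the build GRCh38.p14, from 250 bases before the annotated start to 50 bases after it, on the strand of the gene. They are XRCC4 at chr5:83077297-83077596 on the plus strand, LIG4 at chr13:108218300-108218599 on the minus strand, PAXX at chr9:136992172-136992471 on the plus strand and XRCC6 at chr22:41621045-41621344 on the plus strand. Capitals mark matches on either strand to 7 motifs, which were the CCAAT box, the GC box GGGCGG, the ETS core CCGGAAG, the E2F-type letters TTTGGCG with their variant TTTCGCG, the CRE letters TGACGTC, the NRF1-type letters GCATGCG and the YY1-type letters AAGATGG.
XRCC4: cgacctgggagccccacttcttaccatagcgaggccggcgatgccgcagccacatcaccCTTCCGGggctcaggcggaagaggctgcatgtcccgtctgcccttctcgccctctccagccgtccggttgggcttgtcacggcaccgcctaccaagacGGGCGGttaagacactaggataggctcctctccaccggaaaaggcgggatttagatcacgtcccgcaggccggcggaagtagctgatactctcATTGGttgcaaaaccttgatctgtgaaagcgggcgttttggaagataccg
LIG4: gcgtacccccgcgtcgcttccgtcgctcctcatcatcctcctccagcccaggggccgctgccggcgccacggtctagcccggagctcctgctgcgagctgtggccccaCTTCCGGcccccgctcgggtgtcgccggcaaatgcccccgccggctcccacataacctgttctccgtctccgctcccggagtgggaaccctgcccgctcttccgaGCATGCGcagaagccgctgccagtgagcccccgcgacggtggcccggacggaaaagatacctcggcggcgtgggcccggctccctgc
PAXX: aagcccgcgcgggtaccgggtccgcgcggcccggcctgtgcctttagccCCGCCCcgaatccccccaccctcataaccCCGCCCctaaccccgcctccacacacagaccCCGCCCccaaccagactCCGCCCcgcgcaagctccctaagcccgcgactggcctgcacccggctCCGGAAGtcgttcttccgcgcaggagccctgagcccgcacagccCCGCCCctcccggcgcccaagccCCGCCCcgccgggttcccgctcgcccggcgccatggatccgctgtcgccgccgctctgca
XRCC6: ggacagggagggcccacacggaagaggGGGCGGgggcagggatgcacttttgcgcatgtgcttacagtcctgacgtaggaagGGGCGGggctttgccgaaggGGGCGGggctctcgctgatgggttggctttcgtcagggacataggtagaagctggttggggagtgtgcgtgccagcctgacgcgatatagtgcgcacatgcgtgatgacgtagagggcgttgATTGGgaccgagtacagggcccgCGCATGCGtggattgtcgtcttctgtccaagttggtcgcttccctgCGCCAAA
CCGGAAG, the core bound by ETS-family factors, stood in the windows of XRCC4, LIG4 and PAXX, that is in genes of either direction, and was absent from that of XRCC6. In all it stood in 5 of the 8 windows found for end-joining genes (also POLL and POLM), against 10.3% of 35116 windows of the same length. The GC box stood in 6 of the 8 windows, 6 times in that of PAXX and in none of LIG4 and POLL, against 45% of all windows. CCAAT stood in 4 of the 8 (XRCC6, DCLRE1C, POLM and XRCC4), against 34.6% of all windows. GCATGCG stood in those of XRCC6, where matches on both strands overlap, and LIG4, against 3.91%. One match each was found for the E2F-type letters (XRCC6, 3.19% of all windows) and for the YY1-type letters (POLL, 5.84%), and none for the CRE letters (3.45%). These matches are descriptions of the letters, not of bound sites. Each member was given 1 window, the most upstream. The 35116 windows were not limited to 1 per gene or to genes tested here. GC content was 47% in the window of DCLRE1C and between 60.7% and 75.7% in the others, against a median of 58.7% over all windows. Shares among windows of like GC content were not computed. XRCC5 and PRKDC were not searched.

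XRCC5 encodes Ku80, the larger subunit of the Ku ring. It had 622, 614, 623 and 629 CPM in the KO libraries, against 876, 796, 799 and 844 CPM in the control libraries. The KO libraries lay close together and all below the lowest control. The log2 fold change was -0.41 ± 0.046 (SE; adjusted p = 1.41e-07), a level of 0.750 of the control.

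XRCC6 encodes Ku70, the other subunit. Its levels were 811, 844, 845 and 878 CPM in the KO libraries and 991, 913, 917 and 990 CPM in the control libraries. The arms again did not overlap, but the gap was small, and the log2 fold change was -0.17 ± 0.048 (SE; adjusted p = 0.00363). Of all genes tested, 27.3% had all 4 KO libraries above all 4 controls and 25.6% had all 4 below. Among end-joining genes 2 lay above in this sense (XRCC4 and LIG4) and 3 below (XRCC5, XRCC6 and PAXX). A pseudogene entry of the tables, XRCC6P5, had 132 counts in the deeper KO arm and 121 in the control arm, where XRCC6 had at least 3388 counts in each library. Scaled to library size, XRCC6P5 had means of 2.07 CPM in KO and 3.04 CPM in control libraries. It was called lower in edgeR's quasi-likelihood test (-0.52 ± 0.20, SE, adjusted p = 0.0280).

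The Ku subunits are made as a pair, and the ratio of their RNAs does not depend on how libraries are scaled. Counts per kilobase of XRCC6 were between 1.92 and 2.06 times those of XRCC5 in KO libraries and between 1.67 and 1.73 times in control libraries. The log2 ratio was higher by 0.24 in KO libraries, with no overlap (two-sided exact permutation test, p = 0.0286, the smallest that 4 against 4 allow, and 0.0357 adjusted over the 5 ratios computed between members). The RNA of XRCC5 therefore fell by more than that of XRCC6. How often the ratio of other pairs of genes separates the arms was not computed, for this ratio or those below.

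PRKDC encodes DNA-PKcs, the large kinase that Ku recruits. It had 1153, 1110, 1147 and 1212 CPM in the KO libraries, against 1657, 1316, 1169 and 1341 CPM in the control libraries. Control sgRNA1 replicate 1 stood highest, and control sgRNA2 replicate 1 lay inside the range of the KO libraries, so that the arms overlapped. The log2 fold change was -0.24 ± 0.072 (SE; adjusted p = 0.00586). Without control sgRNA1 replicate 1 it was -0.14 (adjusted p = 0.0143), and DESeq2 gave -0.24 with an adjusted p of 0.0634.

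DCLRE1C encodes Artemis, the nuclease that DNA-PKcs activates and that opens DNA hairpins. It had 33.5, 32.9, 34.3 and 28.2 CPM in the KO libraries, against 24.2, 31.5, 25.3 and 23.1 CPM in the control libraries. The arms overlapped only between KO sgRNA2 replicate 2 and control sgRNA1 replicate 2, the shallowest library, and the KO libraries lay above the controls within each guide. The log2 fold change was 0.35 ± 0.078 (SE; adjusted p = 0.000542). It shares 2.51% of its exonic bases with the histone methyltransferase gene SUV39H2 on the other strand, which changed by -0.38 ± 0.058 on the log2 scale. The pseudogene entry DCLRE1CP1 had 26 counts in the KO arm and 4 in the control arm, against at least 117 counts of DCLRE1C in each library.

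The polymerase genes did not pass the test. POLL encodes DNA polymerase lambda, which fills short gaps from a template strand, and had 31.2, 31.9, 34.0 and 32.0 CPM in the KO libraries, against 32.2, 32.1, 33.3 and 33.8 CPM in the control libraries. Its log2 fold change was -0.02 ± 0.058 (SE; adjusted p = 0.742), with a 95% interval from -0.14 to 0.10. POLM encodes DNA polymerase mu, which can prime across ends that do not pair, and had 16.7, 17.1, 19.3 and 17.3 CPM in the KO libraries, against 12.7, 15.6, 17.8 and 17.9 CPM in the control libraries. Its arms overlapped, both sgRNA1 controls lying lowest, and the log2 fold change was 0.15 ± 0.087 (SE; adjusted p = 0.133), with an interval from -0.03 to 0.34. Without KO sgRNA2 replicate 2 POLM passed the test (0.21, adjusted p = 0.0486), and without control sgRNA1 replicate 1 its change was 0.052 (adjusted p = 0.637). The POLM to POLL ratio per kilobase ranged from 0.436 to 0.462 in KO libraries and from 0.322 to 0.436 in control libraries, with the arms just apart and a log2 difference of 0.17 (exact permutation test, p = 0.0286, 0.0357 adjusted over the 5 ratios). Without control sgRNA1 replicate 1 that difference was 0.07, and with all libraries thinned to the depth of the shallowest the exact p was 0.4. An overlap of 4.48% of the exonic bases of POLL lies with DPCD on the other strand (0.12 on the log2 scale, adjusted p = 0.179).

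XRCC4 encodes the scaffold that stabilises ligase IV. It had 33.9, 32.7, 30.9 and 31.5 CPM in the KO libraries, against 19.1, 17.2, 18.6 and 20.6 CPM in the control libraries. All 4 KO libraries lay well above the highest control, and the log2 fold change was 0.75 ± 0.070 (SE; adjusted p = 1.09e-08), or 1.68-fold, the largest among the 10 genes.

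LIG4 encodes DNA ligase IV, which seals the joined strands. It had 68.6, 71.1, 70.3 and 67.4 CPM in the KO libraries, against 45.0, 52.0, 44.0 and 40.7 CPM in the control libraries. The KO libraries were tight and did not overlap the controls. The log2 fold change was 0.64 ± 0.055 (SE; adjusted p = 3.53e-09), or 1.56-fold. The LIG4 to XRCC4 ratio per kilobase ranged from 0.926 to 1.04 in KO libraries and from 0.904 to 1.37 in control libraries, a log2 difference of -0.15 (exact permutation test, p = 0.286). A difference between the changes of these partners was not detected with all 8 libraries. Single libraries moved this value, to -0.046 without control sgRNA1 replicate 2 (exact p = 0.571) and to -0.25 without control sgRNA2 replicate 2 (exact p = 0.0571, the smallest that 4 against 3 allow). With libraries thinned to the depth of the shallowest it was -0.27 (exact p = 0.0857).

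NHEJ1 encodes XLF, a relative of XRCC4 that forms filaments with it. It had 17.2, 20.4, 16.8 and 19.8 CPM in the KO libraries, against 20.5, 14.5, 18.8 and 20.6 CPM in the control libraries. The arms overlapped throughout, and the log2 fold change was -0.06 ± 0.093 (SE; adjusted p = 0.565), with a 95% interval from -0.26 to 0.13. Set against XRCC4 in the same library, its ratio per kilobase was between 0.671 and 0.832 in KO libraries and between 1.12 and 1.42 in control libraries. The arms did not overlap, and the log2 difference was -0.77 (exact permutation test, p = 0.0286, 0.0357 adjusted over the 5 ratios). The level of this and of every other ratio per kilobase rests on the gene lengths used, and the log2 difference between the arms does not. For NHEJ1 the length used was 2103 bases, against 3109 exonic bases in GENCODE, so which of the 2 genes stands higher within an arm is not settled by this ratio. The GENCODE annotation holds a second protein-coding entry, AC068946.1, that covers 65.4% of the exonic bases of NHEJ1 on the same strand. No entry was found in the tables under that name, and whether another entry shares reads with NHEJ1 is not known.

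PAXX encodes a small protein of the XRCC4 family that binds Ku. It had 23.0, 21.8, 20.4 and 23.2 CPM in the KO libraries, against 29.4, 32.9, 35.8 and 34.9 CPM in the control libraries. The arms did not overlap, and the log2 fold change was -0.59 ± 0.073 (SE; adjusted p = 5.59e-07), or 0.665 of the control level, the largest fall among the 10 genes. The PAXX to XRCC6 ratio per kilobase lay between 0.0694 and 0.0812 in KO libraries and between 0.0852 and 0.112 in control libraries. The log2 difference was -0.41 (exact permutation test, p = 0.0286, 0.0357 adjusted over the 5 ratios). With libraries thinned to the depth of the shallowest it was -0.31 (exact p = 0.114).

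The 3 proteins of the XRCC4 family thus had RNAs that went different ways, XRCC4 higher, PAXX lower and NHEJ1 with no change detected. The direction also went with abundance across the whole table. Of the 2577 genes tested with over 100 CPM, 25.3% were higher and 45.7% lower in KO cells, and XRCC5, XRCC6 and PRKDC, all lower, are among these. Of the 7375 genes of 10 to 100 CPM, where the other 7 members lie, 30.7% were higher and 36.9% lower. Below these levels more genes were higher than lower. The shares were 36.5% and 16.5% for 3440 genes of 1 to 10 CPM, and 40.7% and 3.57% for 1063 genes under 1 CPM. The part of this in the changes of the members was not tested.

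**Figure D2:**
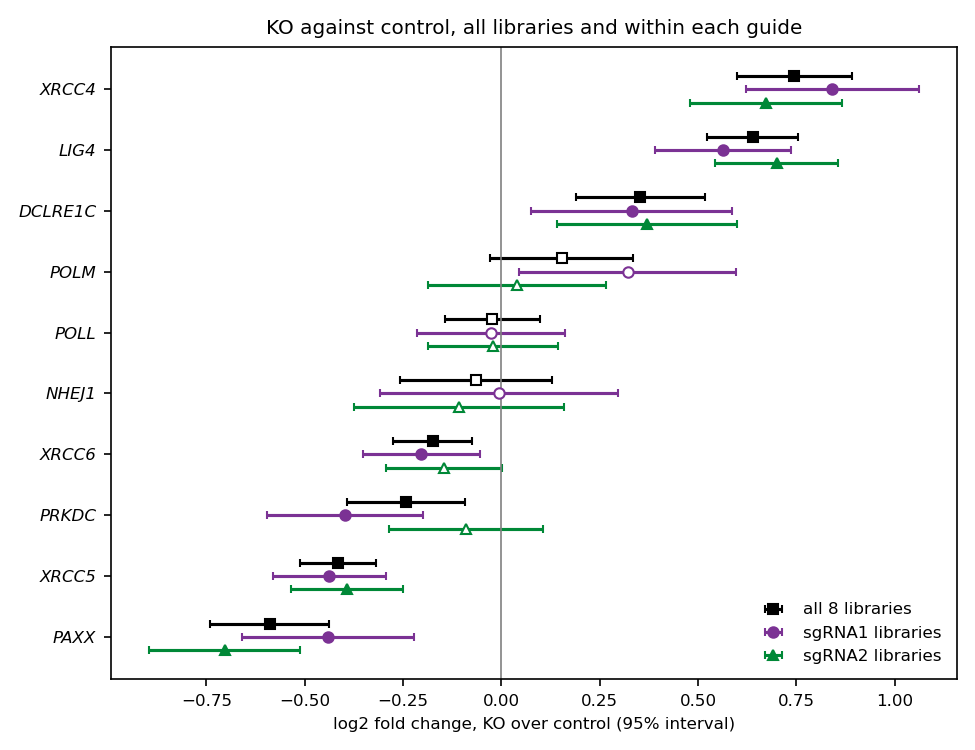
Log2 fold change of KO over control with its 95% interval for each end-joining gene, over all 8 libraries (squares), the sgRNA1 libraries (circles) and the sgRNA2 libraries (triangles). Filled symbols passed the adjusted p of 0.05. The intervals of XRCC4, LIG4 and DCLRE1C lay above 0 and those of XRCC5 and PAXX below 0 in all 3 fits.

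Each guide was also taken alone, with the spread estimated from all 4 groups. With sgRNA1, 3 end-joining genes were higher and 4 lower, the genes called over all libraries, against 47.6% of all genes tested called (24.3% higher and 23.3% lower). With sgRNA2, 3 were higher (XRCC4, LIG4 and DCLRE1C) and 2 lower (XRCC5 and PAXX), against 51.2% of all genes tested (25.7% higher and 25.4% lower). XRCC4 changed by 0.84 ± 0.10 on the log2 scale with sgRNA1 (adjusted p = 3.89e-06) and by 0.67 ± 0.092 with sgRNA2 (adjusted p = 8.55e-06). LIG4 changed by 0.56 ± 0.082 (adjusted p = 2.15e-05) with sgRNA1 and by 0.70 ± 0.074 (adjusted p = 5.02e-07) with sgRNA2. PAXX changed by -0.44 ± 0.10 with sgRNA1 (adjusted p = 0.00193) and by -0.70 ± 0.091 with sgRNA2 (adjusted p = 4.98e-06), and XRCC5 by -0.44 ± 0.068 with sgRNA1 (adjusted p = 4.53e-05) and by -0.39 ± 0.068 with sgRNA2 (adjusted p = 0.000104). These 4 genes thus passed with either guide.

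Of the remaining called genes, DCLRE1C passed with either guide and PRKDC and XRCC6 with sgRNA1. PRKDC changed by -0.40 ± 0.094 (adjusted p = 0.00201) with sgRNA1 and by -0.09 ± 0.093 (adjusted p = 0.444) with sgRNA2. Without control sgRNA1 replicate 1 the sgRNA1 value of PRKDC was -0.21 (adjusted p = 0.0197), and leaving out 1 sgRNA2 control gave sgRNA2 values of -0.19 (replicate 1, adjusted p = 0.229) and 0.0015 (replicate 2, adjusted p = 0.994). XRCC6 changed by -0.20 ± 0.071 (adjusted p = 0.0248) with sgRNA1 and by -0.15 ± 0.070 (adjusted p = 0.0926) with sgRNA2. DCLRE1C changed by 0.33 ± 0.12 with sgRNA1 (adjusted p = 0.0319) and by 0.37 ± 0.11 with sgRNA2 (adjusted p = 0.00855). POLM, not called over all libraries, changed by 0.32 ± 0.13 (adjusted p = 0.0519) with sgRNA1 and by 0.04 ± 0.11 (adjusted p = 0.783) with sgRNA2.

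Some of these calls depended on 1 library. With sgRNA1, DCLRE1C lost its call but not its size without KO sgRNA1 replicate 1 (0.30, adjusted p = 0.135) or KO sgRNA1 replicate 2 (0.33, adjusted p = 0.0942), and had a value of 0.080 without control sgRNA1 replicate 1 (adjusted p = 0.742). With sgRNA2 it lost its call without KO sgRNA2 replicate 1 (0.21, adjusted p = 0.179) or control sgRNA2 replicate 2 (0.30, adjusted p = 0.0911). XRCC6 lost its sgRNA1 call without KO sgRNA1 replicate 1 (-0.18, adjusted p = 0.174), KO sgRNA1 replicate 2 (-0.24, adjusted p = 0.0647) or control sgRNA1 replicate 1 (-0.14, adjusted p = 0.0852). It gained an sgRNA2 call without control sgRNA1 replicate 1 or replicate 2 (-0.15 and -0.16, adjusted p of 0.0102 and 0.00797), although neither library is part of that contrast. POLM gained an sgRNA1 call without KO sgRNA2 replicate 2 or control sgRNA1 replicate 2 (0.32 and 0.40, adjusted p of 0.0455 and 0.0213), and its sgRNA1 value was 0.12 without control sgRNA1 replicate 1 (adjusted p = 0.694).

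The difference between the guides was tested directly. No end-joining gene passed in edgeR's quasi-likelihood test of that difference, nor did any other gene (0 of 14455), and DESeq2 and limma-voom also called 0 of the 10. At an unadjusted p under 0.05 there was 1 end-joining gene, PRKDC (difference -0.31 ± 0.13, unadjusted p = 0.0321), beside 638 of all genes (4.41%). The difference of PRKDC moved with single control libraries. It was -0.46 and passed without control sgRNA1 replicate 2 (adjusted p = 0.0245), and was -0.12 without control sgRNA1 replicate 1 (unadjusted p = 0.182) and -0.21 without control sgRNA2 replicate 1 (unadjusted p = 0.196).

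Libraries of 1 arm were set against each other as well. Between the control guides, sgRNA2 over sgRNA1, no end-joining gene was called, against 0.0277% of all genes tested, and 3 had an unadjusted p under 0.05 in edgeR, beside 8.25% of all genes. These were POLM (0.40, unadjusted p = 0.00702), PRKDC (-0.25, unadjusted p = 0.0168) and PAXX (0.22, unadjusted p = 0.0447). Between the KO guides none of the 10 was called (0 of 14455 genes by edgeR), and none had an unadjusted p under 0.05, beside 4.24% of all genes.

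Levels of different genes are given per length, as TMM-scaled CPM divided by the gene length of the tables in kilobases. In KO cells the order was XRCC6 at 363 ± 11.8, XRCC5 at 181 ± 1.78, PRKDC at 85.5 ± 3.13, PAXX at 27.2 ± 1.54, XRCC4 at 11.6 ± 0.494, LIG4 at 11.4 ± 0.272, POLL at 9.76 ± 0.369, NHEJ1 at 8.82 ± 0.845, DCLRE1C at 4.62 ± 0.392 and POLM at 4.33 ± 0.286 CPM per kilobase (SD, n = 4). In control cells it was XRCC6 at 409 ± 18.7, XRCC5 at 242 ± 11.3, PRKDC at 101 ± 15.2, PAXX at 41.0 ± 3.50, POLL at 9.92 ± 0.259, NHEJ1 at 8.85 ± 1.35, LIG4 at 7.49 ± 0.784, XRCC4 at 6.80 ± 0.50, POLM at 3.94 ± 0.604 and DCLRE1C at 3.73 ± 0.538 CPM per kilobase (SD, n = 4). The end-binding genes and the kinase led in both arms. By their means, XRCC4 and LIG4 stood above POLL and NHEJ1 in KO cells and below them in control cells. This order rests on the gene lengths used. Exonic bases in the GENCODE annotation differ from these, with 4387 against 6064 for LIG4 and 2676 against 2778 for XRCC4. They are 5420 against 3309 for POLL and 3109 against 2103 for NHEJ1. A full order by GENCODE lengths was not computed. Mean CPM in control cells was 45.4 for LIG4, 18.9 for XRCC4, 32.8 for POLL and 18.6 for NHEJ1. Divided by the GENCODE lengths, the means of LIG4 and XRCC4 stand above those of POLL and NHEJ1 in both arms. The change of places between the arms is thus not seen with GENCODE lengths. By the lengths used here, neighbours whose ranges overlapped were XRCC4 and LIG4, POLL and NHEJ1, and DCLRE1C and POLM in KO cells. In control cells they were POLL and NHEJ1, NHEJ1 and LIG4, LIG4 and XRCC4, and POLM and DCLRE1C. Summed over the 10 genes, CPM lay between 2796 and 2938 in KO libraries and between 3079 and 3707 in control libraries, without overlap, most of it from PRKDC, XRCC6 and XRCC5.

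**Figure D3:**
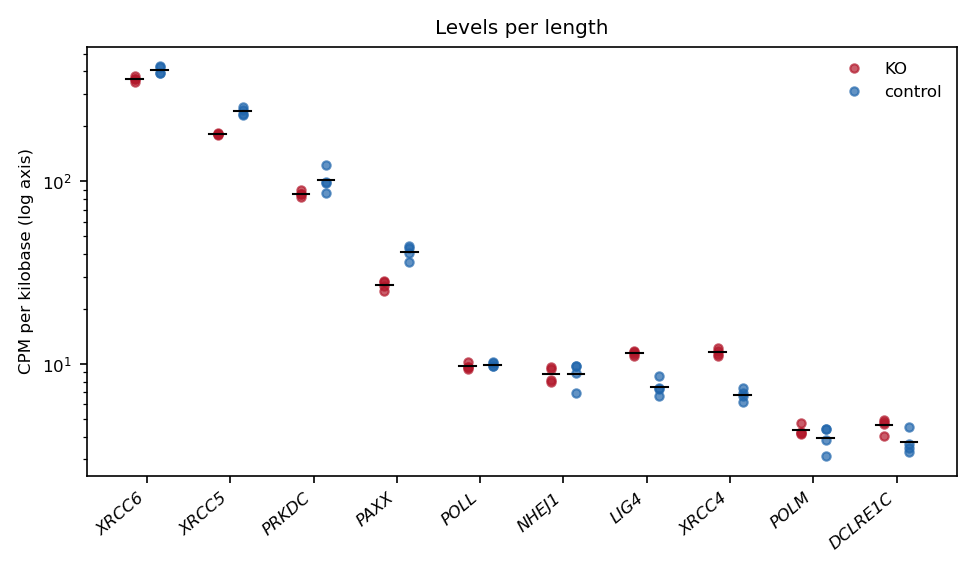
TMM-scaled CPM per kilobase of gene length for each end-joining gene, on a log axis, in the 4 KO (red) and 4 control (blue) libraries. Black lines are means of 4. XRCC6 stood highest in both arms, at 363 in KO and 409 in control cells. With the gene lengths used here, the means of XRCC4 and LIG4 were above those of POLL and NHEJ1 in KO cells and below them in control cells. With GENCODE lengths the means of XRCC4 and LIG4 stand above those of POLL and NHEJ1 in both arms.

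Of the members, 4 have another gene starting on the opposite strand within 1 kb in the GENCODE annotation. LIG4 starts 11 bases from ABHD13, XRCC6 23 bases from DESI1, PRKDC 2 bases from the replication helicase gene MCM4, and XRCC4 365 bases from TMEM167A. ABHD13 had 43.0, 47.7, 37.6 and 40.3 CPM in the KO libraries and 43.1, 35.3, 41.1 and 40.5 CPM in the control libraries, with no change detected (0.03 ± 0.066, adjusted p = 0.696), beside the rise of LIG4. TMEM167A was lower by a small amount (-0.14 ± 0.056, adjusted p = 0.0310), beside the rise of XRCC4. DESI1 (-0.42 ± 0.044, adjusted p = 5.89e-08) and MCM4 (-0.34 ± 0.044, adjusted p = 9.91e-07) fell, as did XRCC6 and PRKDC.

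The ratios to these neighbours, chosen after the data had been seen, were tested within libraries. The LIG4 to ABHD13 ratio per kilobase was between 1.33 and 1.66 in KO libraries and between 0.893 and 1.31 in control libraries, a log2 difference of 0.54. XRCC4 to TMEM167A was between 0.333 and 0.409 in KO libraries and between 0.184 and 0.222 in control libraries, a log2 difference of 0.91. XRCC6 to DESI1 was between 14.8 and 15.5 in KO libraries and between 11.97 and 13.7 in control libraries, a log2 difference of 0.25. Each of these 3 separated the arms (exact permutation test, p = 0.0286, 0.0381 adjusted over the 4 ratios). For LIG4 to ABHD13 the arms were only just apart, and the control value of 1.31 came from control sgRNA1 replicate 2, the shallowest library. Thinning and leaving out libraries were not applied to these neighbour ratios. Of single genes tested, 27.3% had all KO libraries above all controls and 25.6% had all below. The share of other gene pairs whose ratio separates the arms was not computed. PRKDC to MCM4 was between 0.701 and 0.768 in KO libraries and between 0.595 and 0.801 in control libraries, and its log2 difference of 0.11 did not pass (exact permutation test, p = 0.314).

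**Figure D4:**
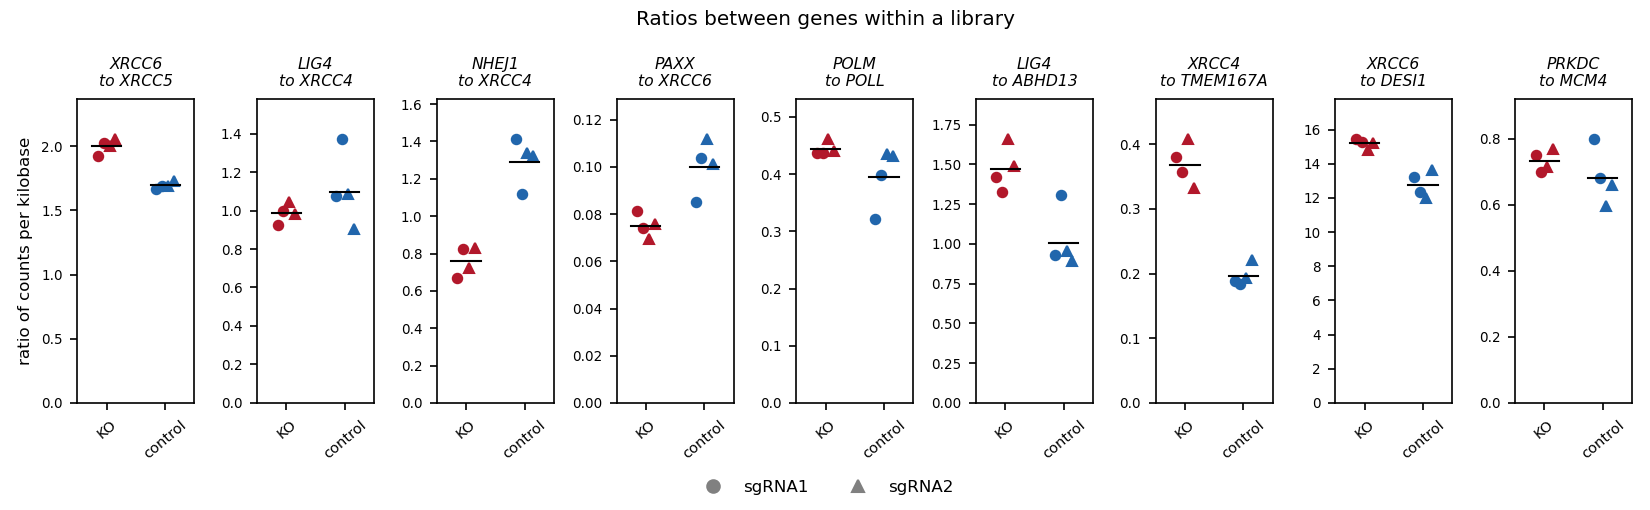
Ratio of counts per kilobase between pairs of genes within each library, for 5 pairs of end-joining genes and 4 pairs of an end-joining gene and the neighbour that starts on the other strand. Circles are sgRNA1 and triangles sgRNA2 libraries, lines are geometric means, and axes start at 0. The arms were apart for each pair but LIG4 to XRCC4 and PRKDC to MCM4. The share of other gene pairs with the arms apart was not computed.

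The other genes of the pathway were taken from lists and counted in the same KO against control test, in which 31.8% of all genes tested were higher and 31.2% lower. Of 8 end-processing and accessory genes, 4 were higher, 1 lower and 3 not called, with a median log2 fold change of 0.10. APLF, a histone chaperone that binds Ku, was higher, at 6.39 ± 0.767 CPM in KO cells and 3.34 ± 0.863 CPM in control cells (SD, n = 4; log2 fold change 1.03 ± 0.16). Of all genes tested at its level of 1 to 10 CPM, 36.5% were higher and 16.5% lower. ERCC6L2, a helicase-like end-joining factor, was also higher (0.32 ± 0.058), and TDP1, which removes blocked ends, was lower (-0.44 ± 0.068). Of 7 genes tested for 53BP1 and shieldin, which shield ends from resection, 1 was higher, 4 lower and 2 not called, with a median of -0.18. SHLD2, a shieldin subunit, had 45.6 ± 1.89 CPM in KO cells and 78.2 ± 1.20 CPM in control cells (SD, n = 4; -0.78 ± 0.048). PAXIP1, a partner of 53BP1, fell (-0.34 ± 0.047), and RIF1 also fell (-0.23 ± 0.044). SHLD3 was not analysed here.

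Of 9 genes of break signalling, 2 were higher, 5 lower and 2 not called, with a median of -0.12. H2AX, the histone variant phosphorylated around breaks, had 427 ± 13.8 CPM in KO cells and 212 ± 7.31 CPM in control cells (SD, n = 4; 1.01 ± 0.044). The ubiquitin ligase gene RNF168 was higher (0.44 ± 0.053), and NBN, of the MRE11 complex, was lower (-0.38 ± 0.045). Of 8 genes of alternative end joining, which works from short homologies, 2 were higher, 5 lower and 1 not called, with a median of -0.14. POLQ, its polymerase, was higher at 89.6 ± 1.64 CPM in KO cells and 70.01 ± 5.48 CPM in control cells (SD, n = 4; 0.37 ± 0.050), while PARP2 (-0.37 ± 0.052) and the flap nuclease gene FEN1 (-0.37 ± 0.044) were lower. Of 7 chaperone genes that assemble DNA-PKcs and related kinases, 2 were higher, 3 lower and 2 not called, with a median of -0.13. TELO2 had 95.4 ± 3.89 CPM in KO cells and 159 ± 14.1 CPM in control cells (SD, n = 4; -0.72 ± 0.054), RUVBL2 was lower (-0.32 ± 0.039) and RPAP3 higher (0.25 ± 0.049). Each gene named from these lists had an adjusted p of at most 0.000176.

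The genes for making and processing antigen receptor breaks in lymphocytes were near the floor of the counts. RAG1 had 1.76 ± 0.147 CPM in KO cells and 1.25 ± 0.365 CPM in control cells (SD, n = 4; log2 fold change 0.50 ± 0.25, adjusted p = 0.0935). RAG2 had 24 counts in the KO arm and 0 in the control arm, DNTT had 3 and 0, and neither passed the filter. The expressed lists and the core genes each held members of both directions, as did all genes tested (31.8% higher and 31.2% lower).

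**Figure D5:**
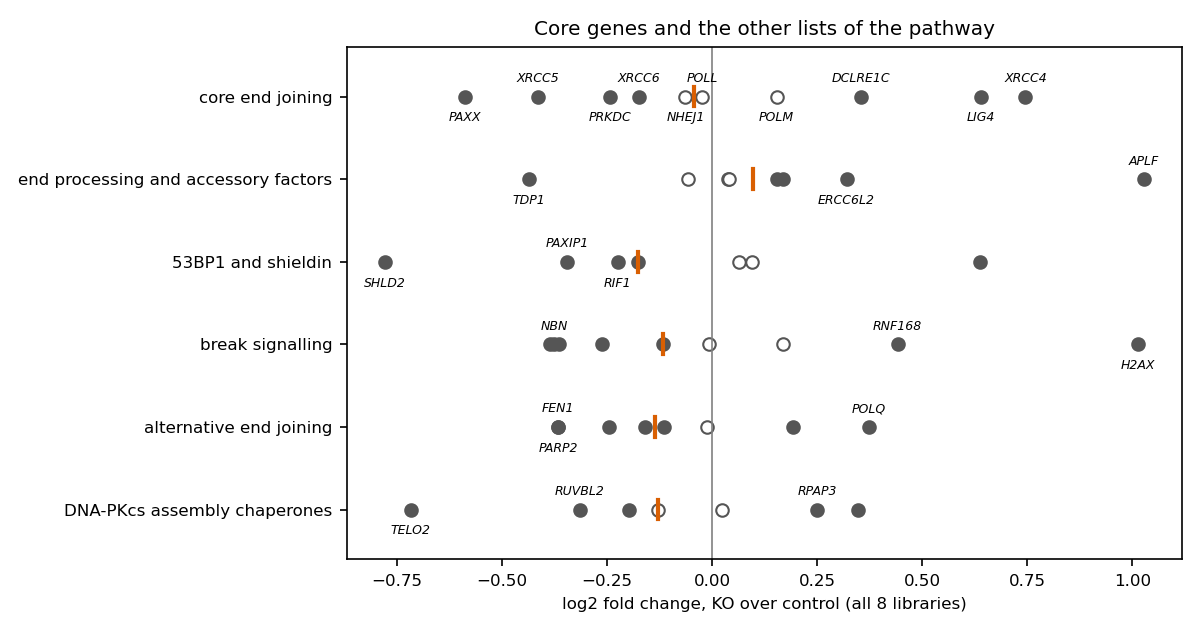
Log2 fold change of KO over control for the 10 core end-joining genes and for the tested genes of 5 other lists of the pathway. Filled dots passed the adjusted p of 0.05, orange bars are medians, and the named genes are the core genes and the 3 of each list with the smallest p. Every list held genes on both sides of 0, with medians between -0.18 and 0.10.

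LIG4, the end-joining gene with the smallest p, was set against every gene tested for likeness of its log2 CPM over the 8 libraries. The most alike were ZDHHC14, C8orf48 and ZNF778, with Pearson's r of 0.999, 0.997 and 0.994. The 8 points fall into the 2 arms, share their scaling within a library and rest on the difference between the arms, so these values are a description. ZDHHC14, a palmitoyltransferase gene, had 20.4 ± 0.340 CPM in KO cells and 15.4 ± 0.961 CPM in control cells (SD, n = 4). C8orf48 was near the floor, with 152 counts in the KO arm and 16 in the control arm. Its means were 2.35 ± 0.153 CPM in KO cells and 0.450 ± 0.248 CPM in control cells (SD, n = 4).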

How the data were processed

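The values, which are counts, came from 8 stranded poly(A) libraries, and the authors deposited them unscaled as 1 table per library with gene lengths. The submitters' processing notes name featureCounts and the build hg38. How reads were aligned, which annotation and strand setting were used and what was filtered is not given in the sources used here, so reads shared with pseudogenes or overlapping genes may have been counted or dropped. Entries without a gene number (459 of 28395, between 0.0284% and 0.0425% of counts) were left out.

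Genes were kept with filterByExpr, with the 4 groups given, at its minimum count of 10 and total of 15. Tests were edgeR 4.0.16 quasi-likelihood tests on TMM-scaled counts (R 4.3.3), with Benjamini-Hochberg adjustment over all 14455 genes. The KO against control fit had the guide number as a covariate, and contrasts within guides used the 4 group means. DESeq2 1.42.0 and limma 3.58.1 were alternatives. Ratios used two-sided exact permutation tests (scipy 1.17.1). The edgeR script was tested on simulated data. At these depths every member had at least 54 counts in each library. Replicate pairs of each group differed by more than sampling noise, with a chi-square per gene between 1.60 (KO sgRNA1) and 7.20 (control sgRNA1). That does not show whether they were separate cultures. All 8 libraries were kept as separate samples.

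The members and gene lists were chosen with earlier results of these data known. Named genes were the members, KAT5, up to 3 genes of the smallest p in each list, the lymphoid genes, neighbours starting within 1 kb or overlapping in exons, pseudogene entries, and the 3 genes most alike to the member of the smallest p. Alternatives were other scalings, tools and filters, thinning to the shallowest library, a replicate block, no guide term and leaving out each library.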

Additional observations from a re-analysis of the deposited data

How the results depend on the processing

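Under 17 alternatives each, XRCC4, LIG4, DCLRE1C, XRCC5, XRCC6 and PAXX kept their direction and their call in the KO against control test, with log2 fold changes from 0.71 to 0.82, 0.54 to 0.67, 0.27 to 0.41, -0.45 to -0.38, -0.20 to -0.14 and -0.67 to -0.45 in that order. PRKDC ranged from -0.31 to -0.14 and missed the threshold with DESeq2 only, and POLM ranged from 0.05 to 0.21 and passed only without KO sgRNA2 replicate 2. The sign turned for POLL, to 0.037 with libraries thinned to the shallowest and to 0.012 with library totals alone (chosen after seeing the data), and for NHEJ1, to 0.010 when thinned, and neither gene passed under any alternative. Thinning also left 4 of the 7 genes called with sgRNA1, without XRCC6 (-0.15, adjusted p = 0.0932), DCLRE1C (0.30, 0.132) and PAXX (-0.42, 0.0525), the last 2 at sizes near those at full depth (0.33 and -0.44), and DCLRE1C lost its sgRNA2 call (0.38, 0.0689). Within guides, XRCC6 passed with sgRNA2 in limma-voom (adjusted p = 0.0402) and with no filter (0.0159), POLM passed with sgRNA1 in limma-voom (0.0482), under the stricter filter (0.0460) and with library totals alone (0.0346), and DESeq2 did not call DCLRE1C with sgRNA1 (0.30, adjusted p = 0.132). Leaving out 1 library at a time gave 3 to 4 genes higher and 4 lower in the KO against control test. Over all genes, these fits called 4209 to 4583 higher and 4178 to 4739 lower. Thinning called 3258 higher and 3270 lower of 12611 genes tested. The replicate block called 4527 and 4453 of 14455, against 4602 and 4507 in the main fit. Shares of all genes called within guides are not given for these settings. Replicate numbers shared only a number between the arms (correlation of deviations 0.0151 for sgRNA1 and 0.0276 for sgRNA2), and a replicate block gave 3 genes higher, 4 lower, 7 called with sgRNA1, 5 with sgRNA2 and 0 for the difference, as without it. For the ratios, a replicate block allows no exact p under 0.125 and leaving out 1 library none under 0.0571, so these p-values say nothing on their stability. Leaving out 1 library gave log2 differences from 0.23 to 0.26 for XRCC6 to XRCC5 and from -0.84 to -0.71 for NHEJ1 to XRCC4. The range was -0.49 to -0.36 for PAXX to XRCC6. It was wider for its size for POLM to POLL (0.073 to 0.22) and LIG4 to XRCC4 (-0.25 to -0.046). The shallowest library held 54 counts of NHEJ1, 58 of POLM and 64 of XRCC4, which limits the precision of these genes there.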
